A study of Mus musculus with 23 samples.

Results

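The comparison concerned the response of haemogenic endothelium to RUNX1-ETO at 2 consecutive stages, HE and HE2, and asked for which genes that response was not the same. Its members were 12 of the 23 arrays of the series, with 3 for each stage without and 3 with induction. The quantity described is the difference in response, that is, the log2 change with doxycycline (Dox) in HE2 minus the log2 change with Dox in HE. A positive value means that the response was higher in HE2, which holds both for a gene upregulated in HE2 and for a gene downregulated in HE. By construction it is also the HE to HE2 change with Dox minus the change without Dox.

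All 4 groups were sorted from blast cultures of 1 mouse ES cell system, labelled C57BL/6, in which the DNA for HA-tagged human RUNX1-ETO sits behind a tetracycline-responsive promoter while both copies of Runx1 are wild type, so that the uninduced controls carry the transgene as well. HE cells were KIT+ Tie2+ CD41- and HE2 cells KIT+ Tie2+ CD41+. Induced cells were grown with Dox (0.1 μg per ml) added on day 1 of the blast culture, uninduced cells without it. The ES cells had been picked as individual colonies, so that the line may represent a clone. Total RNA was hybridised in 1 colour to Agilent mouse arrays, and each group had 3 arrays labelled as biological replicates. Whether these came from separate cultures is not given in the labels, so that P values measure the spread between arrays. That spread was estimated over the 22 fitted arrays of all stages, later progenitors included. All values are normalized log2 intensities, 59.2 to 78.4% of probes being well above background on an array, and levels of different genes are not comparable on this scale.

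RUNX1-ETO is the fusion protein of t(8;21) acute myeloid leukaemia, in which the DNA-binding part of RUNX1 is joined to the corepressor-recruiting protein ETO. Haemogenic endothelium is the endothelial cell type from which the first blood cells arise. During the endothelial-haematopoietic transition (EHT), which RUNX1 drives, CD41 appears on the surface, endothelial genes are shut down and blood genes such as those for PU.1 and its targets are activated. HE lies before and HE2 within this transition.

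The labels were first checked on each array. Log2 intensities of Runx1t1, the mouse gene of the ETO part, were 10.56, 11.14 and 10.72 in uninduced HE, 11.90, 12.44 and 11.81 in induced HE, 9.79, 10.11 and 9.74 in uninduced HE2 and 11.51, 11.92 and 12.46 in induced HE2. All induced arrays lay above the uninduced arrays of their stage, by 1.24 (adjusted P = 0.0155) in HE and 2.08 (adjusted P = 2.96e-04) in HE2. The difference between these responses, 0.84 (SE 0.47, adjusted P = 0.729), was not past the threshold, and whether the mouse probe reads the human transgene fully is not known. For Itga2b, which encodes the CD41 used in the sort, the values were 11.15, 9.49 and 11.46 in uninduced HE, 7.53, 6.92 and 8.02 in induced HE, 11.72, 11.19 and 12.51 in uninduced HE2 and 9.58, 10.75 and 7.73 in induced HE2. Uninduced HE and HE2 arrays overlapped for this gene. It fell with Dox in HE, with a change of -3.21 (adjusted P = 0.00205), and the induced HE2 arrays also lay below the uninduced ones, with a change of -2.46 (adjusted P = 0.0139). Runx1 itself was not past the threshold (-1.04, SE 0.50, adjusted P = 0.588), and its log2 intensity was 9.89 to 11.32 in uninduced HE against 12.91 to 13.28 in uninduced HE2. Kit, with a difference of -0.42, and Tek, which encodes Tie2, with 0.77, did not pass it either. Tek values ranged from 10.77 to 13.81 within uninduced HE alone. Trh, the thyrotropin-releasing hormone gene, rose at both stages, by 6.15 in HE and 5.73 in HE2, with a difference of -0.42 (SE 0.51, adjusted P = 0.973).

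Of 15202 genes tested, 203, or 1.34%, responded to Dox differently in HE2 and in HE. The threshold was a P value of 0.001 before adjustment together with a 2-fold difference, and the adjusted P value (Benjamini-Hochberg over all genes tested, limma) reached 0.0715 among the genes called. The response was higher in HE2 for 95 genes (0.625%) and lower for 108 (0.71%). For comparison, Dox changed 1078 genes in HE (7.09%), with 4.7% of the genes tested up and 2.39% down, and 1098 in HE2 (7.22%), with 5.17% up and 2.05% down. Of the higher genes 54, and of the lower genes 79, had an adjusted P of 0.05 or less. With only the HE and HE2 arrays fitted and no block, 126 genes were called, 46 higher and 80 lower. In that fit 23 genes had an adjusted P of 0.05 or less. A fit of the same arrays used the replicate number as a block among the uninduced arrays, which the deviations of those arrays pair. It called 121 genes, 42 higher and 79 lower, and 17 genes had an adjusted P of 0.05 or less. Among the genes named here, both of these fits lost the calls of the higher genes Flrt3, Exoc3l4, Stab1, Hes1, Sema7a, Flt1, Cx3cl1, Klf6 and Col18a1. Both also lost those of the lower genes Cebpe, Ndrg1, Cxcr2, Itgb7, Pla2g4a and Spi1. Lost only with the block were the higher genes Madcam1, Sox17, Vwf and Nr2f2 and the lower genes Il6ra, Btk, Rufy4, Ccl3 and Ccl9. Lost only without it were Vegfc, Ltbp1, Pdgfb, Nrarp and Usp18. The count of higher genes was 57 without uninduced HE replicate 3, 56 without induced HE replicate 3, 51 without uninduced HE2 replicate 3 and 49 without induced HE2 replicate 3. Within slide 1, with 2 uninduced and 1 induced array a stage, 49 genes were called, within slide 2, with 1 and 2, 193, and with the slide as a block 222. All 203 genes kept the direction of their difference in every alternative that gave them a value. They had been chosen by this difference on the same arrays, so that this is no independent check.

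**Figure D1:**
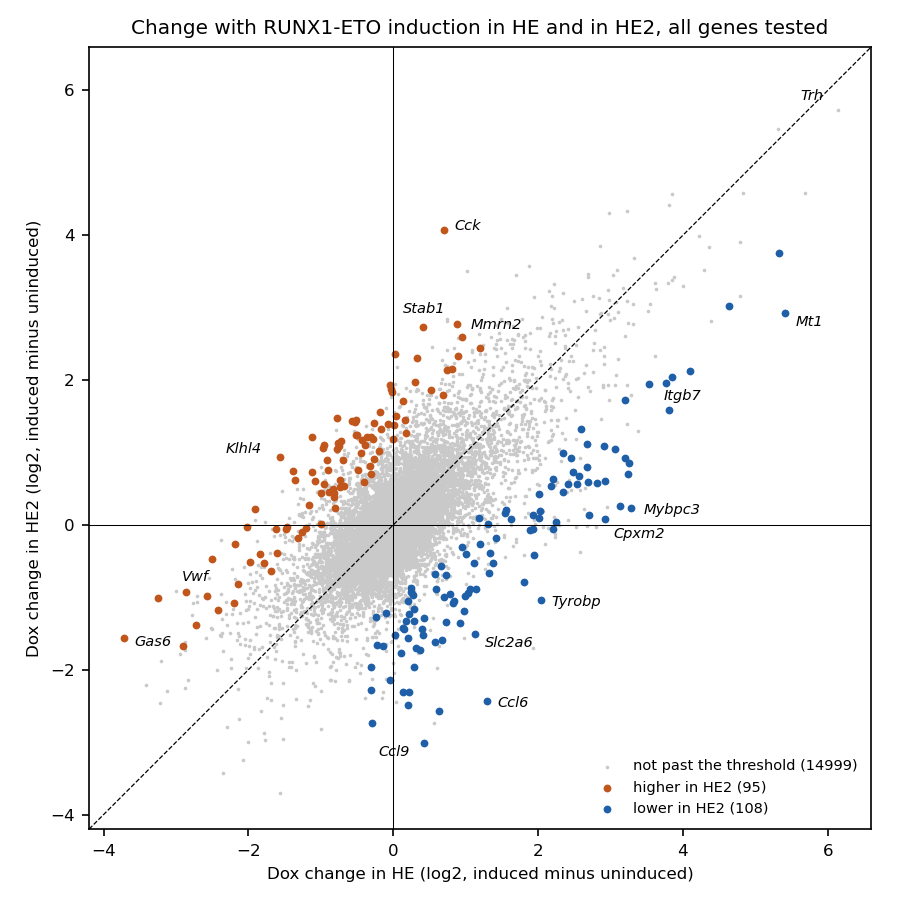
Log2 change with Dox in HE (horizontal) and in HE2 (vertical) of the 15202 genes tested, each point being 1 gene and the dashed line marking equal change. The 95 genes with a higher response in HE2 lie above the line, from Gas6 at the lower left to Cck at the top, and the 108 with a lower response lie below it, with Mt1 at the right and Ccl9 at the bottom.

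The 203 genes did not share 1 pattern, and the 2 directions were built differently. Among the 95 higher genes, 41 were upregulated past the threshold in HE2 and not in HE, 26 were downregulated in HE and not in HE2, 6 changed at both stages in the same direction and 22 passed the threshold at neither stage. In all these 22 the Dox changes had opposite signs. Among the 108 lower genes, 45 were upregulated in HE and not in HE2, 36 were downregulated in HE2 and not in HE, 13 were upregulated at both stages but less in HE2, 13 passed at neither stage, and Slc2a6 changed past the threshold at both in opposite directions. The induced and uninduced arrays were separated without overlap in opposite directions at the 2 stages for 26 of the 95 and 26 of the 108 genes, which was the case for 0.605% of all genes tested. The called genes were chosen by their difference on these same arrays, which favours opposite changes. The larger share among them is therefore no separate result.

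Many of the lower genes were dim in uninduced HE. Of the lower genes, 58 of 108 (53.7%) had a mean below 6.5 in uninduced HE, the filter for testing, and for those downregulated in HE2 alone it was 29 of 36. This compares with 17.1% of all genes. The lowest signal well above background was 4.34 to 4.85 on these arrays, and how far the dim range limits a fall in HE was not tested.

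Cck showed the largest difference in the higher direction. It encodes the peptide hormone cholecystokinin. Its values were 5.92, 6.35 and 6.46 in uninduced HE, 6.57, 7.88 and 6.37 in induced HE, 5.70, 5.95 and 5.79 in uninduced HE2 and 10.32, 9.46 and 9.86 in induced HE2. The 3 induced HE2 arrays stood above the other 9, whereas induced and uninduced HE arrays overlapped. The change was 0.70 (adjusted P = 0.28) in HE and 4.07 (adjusted P = 2.06e-06) in HE2, a difference of 3.37 (SE 0.55, adjusted P = 0.00862). Of the 14 genes for neuropeptide precursors that were tested, it was the 1 past the threshold, and the median difference of these 14 was 0.06.

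Upb1, which encodes an enzyme of pyrimidine breakdown, and Dapk2, a death-associated protein kinase, were upregulated in HE2 in the same way. Upb1 values were 7.49, 7.63 and 7.07 in uninduced HE, 7.58, 8.28 and 7.56 in induced HE, 6.23, 6.66 and 6.61 in uninduced HE2 and 8.87, 8.82 and 9.99 in induced HE2, with a difference of 2.32 (SE 0.41, adjusted P = 0.0118). In Dapk2 they were 8.77, 9.15 and 9.70 in uninduced HE, 8.03, 8.94 and 8.32 in induced HE, 8.58, 8.87 and 8.75 in uninduced HE2 and 9.84, 10.04 and 10.75 in induced HE2, with a difference of 2.26 (SE 0.38, adjusted P = 0.00957). All induced HE2 arrays of both genes lay above the uninduced ones, and their HE arrays overlapped. For Flrt3, a membrane protein that binds guidance receptors of the Unc5 family, the difference of 2.34 (SE 0.59, adjusted P = 0.0674) depended on the arrays, since the call was lost on leaving out any of 9 of the 12 arrays (differences of 1.89 to 2.92).

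Another set of genes had Dox changes of opposite sign at the 2 stages. Klhl4, a gene of the kelch family, had values of 8.66, 8.93 and 9.45 in uninduced HE, 7.94, 7.40 and 7.0 in induced HE, 7.21, 7.59 and 7.27 in uninduced HE2 and 7.71, 8.36 and 8.81 in induced HE2. It fell in HE, with a change of -1.57 (adjusted P = 0.00467), and its value in HE2 was 0.93 (adjusted P = 0.0813), giving a difference of 2.50 (SE 0.50, adjusted P = 0.023). The phosphatase gene Dupd1 followed, with 7.91, 8.43 and 9.09 in uninduced HE, 7.42, 7.61 and 7.03 in induced HE, 7.82, 7.64 and 8.36 in uninduced HE2 and 8.82, 9.06 and 9.60 in induced HE2 and a difference of 2.34 (SE 0.44, adjusted P = 0.0165). Fam181b had a difference of 2.06 (SE 0.40, adjusted P = 0.0197), with Dox changes of -0.95 in HE and 1.1 in HE2. In all 3 genes every induced HE array lay below and every induced HE2 array above the uninduced arrays of its stage.

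The third set was downregulated in HE and less or not in HE2. Gas6, the ligand of the receptor kinases Axl, Tyro3 and Mertk, had values of 14.71, 15.15 and 15.06 in uninduced HE, 11.39, 11.69 and 10.67 in induced HE, 14.09, 14.25 and 13.60 in uninduced HE2 and 12.05, 12.75 and 12.45 in induced HE2. It fell at both stages, with a change of -3.72 (adjusted P = 1.98e-07) in HE and -1.56 (adjusted P = 0.00132) in HE2, and the fall was smaller in HE2, with a difference of 2.16 (SE 0.43, adjusted P = 0.0203). The insulin-like growth factor binding protein gene Igfbp3 had values of 8.90, 8.79 and 10.05 in uninduced HE, 7.17, 6.47 and 6.58 in induced HE, 7.49, 7.20 and 7.18 in uninduced HE2 and 6.72, 7.09 and 6.66 in induced HE2 and a difference of 2.04 (SE 0.42, adjusted P = 0.0246). Its uninduced level was higher on all HE than on all HE2 arrays, and the induced arrays of the stages overlapped. Trib1, a pseudokinase that promotes the breakdown of C/EBP proteins, fell in HE with a change of -1.39 (adjusted P = 0.00945) and had a value of 0.74 (adjusted P = 0.162) in HE2. Its call was lost on leaving out any of 5 of the 12 arrays (differences of 1.83 to 2.46). For Exoc3l4, with a difference of 2.24 (SE 0.52, adjusted P = 0.0507), this was so for 5 of the 12 arrays (differences of 1.78 to 2.57).

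**Figure D2:**
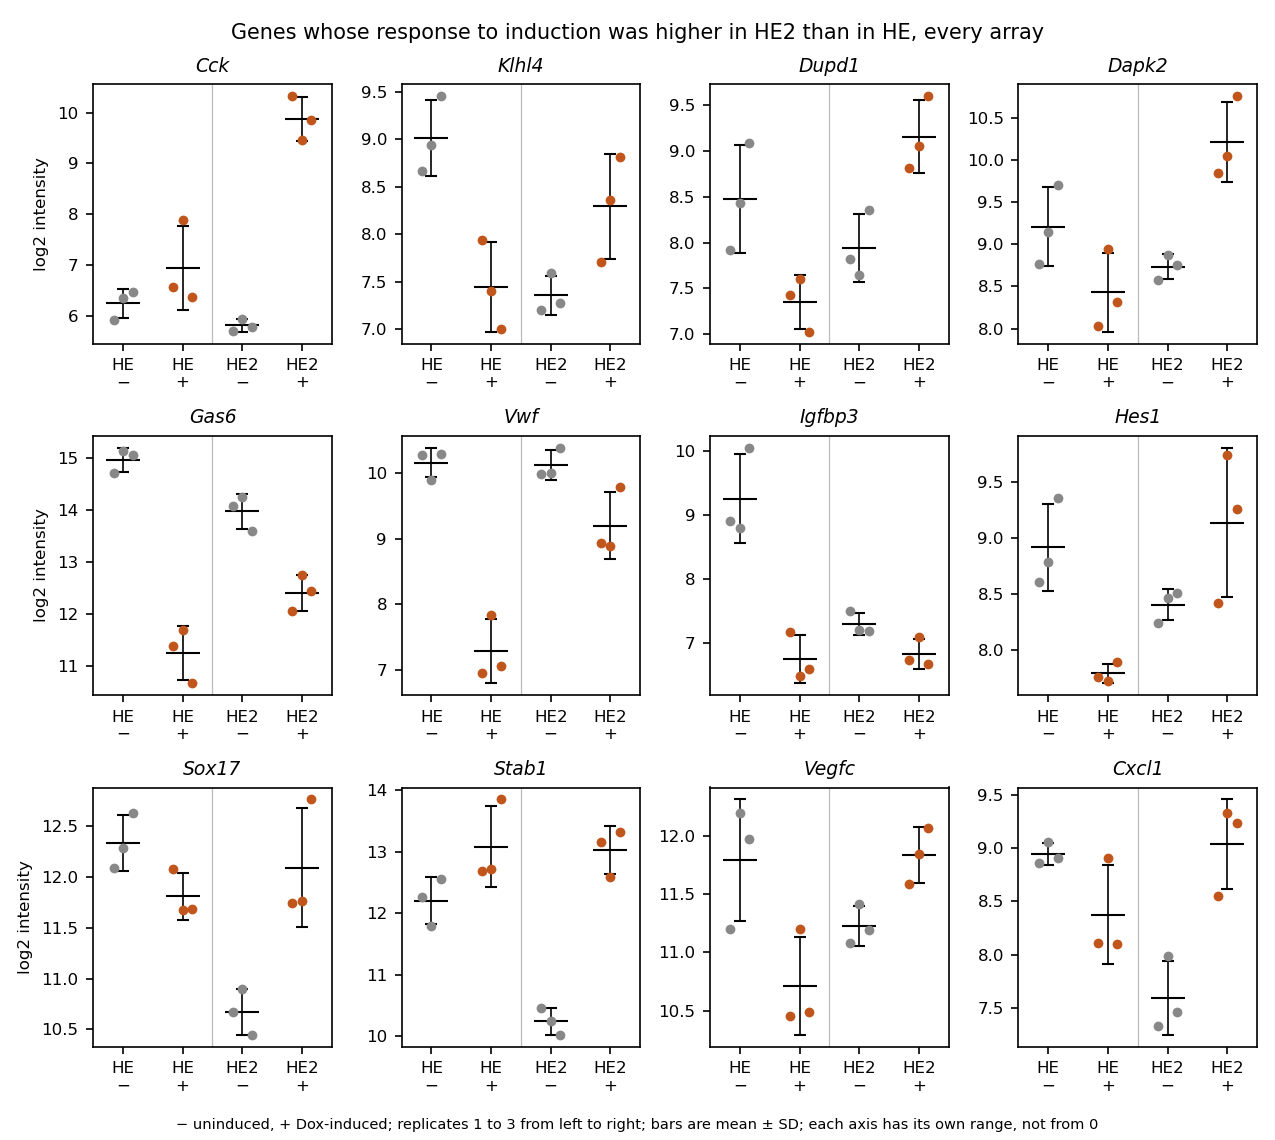
Log2 intensity of 12 genes with a higher response in HE2, on every array, with uninduced arrays in grey, induced arrays in orange and black bars for the mean ± SD of 3 arrays. The induced HE2 arrays of Cck lie between 9.46 and 10.32, above all others, and Klhl4 and Dupd1 run downwards in HE and upwards in HE2.

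Endothelial genes were read in 3 lists, and all their called members had a higher response in HE2. Counts of called genes in these and all other lists stand beside 0.625% higher and 0.71% lower among all genes tested. Of 19 endothelial transcription factor genes tested, Hes1, Nr2f2 and Sox17 had a higher response in HE2, none had a lower one and 16 did not pass the threshold. The median difference of the list was 0.88, with 18 of 19 above 0, beside -0.01 and 49.2% above 0 for all genes tested. Of 30 endothelial surface and junction genes, Flt1 and Stab1 passed, both higher, with a list median of 0.90 and 25 of 30 above 0. Of 18 genes of coagulation and vascular tone, Gas6, Mmrn2 and Vwf passed, all higher, with a median of 0.63. The medians of the Dox changes themselves were -0.37 in HE and 0.59 in HE2 for the transcription factors and 0.38 and 1.05 for the surface genes.

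Sox17 encodes a transcription factor that keeps haemogenic endothelium in its endothelial state. Its values were 12.09, 12.29 and 12.63 in uninduced HE, 12.08, 11.67 and 11.68 in induced HE, 10.67, 10.90 and 10.45 in uninduced HE2 and 11.75, 11.76 and 12.77 in induced HE2, so that induced arrays lay below uninduced ones in HE and above them in HE2. The Dox change was -0.53 (adjusted P = 0.293) in HE and 1.42 (adjusted P = 0.00281) in HE2, with a difference of 1.95 (SE 0.43, adjusted P = 0.0342). Hes1, a target of Notch signalling, had values of 8.61, 8.78 and 9.35 in uninduced HE, 7.75, 7.73 and 7.89 in induced HE, 8.25, 8.46 and 8.51 in uninduced HE2 and 8.42, 9.74 and 9.25 in induced HE2. It fell in HE (-1.12, adjusted P = 0.00725), whereas the HE2 value was 0.73 (adjusted P = 0.072), and the difference was 1.86 (SE 0.38, adjusted P = 0.0246). Nrarp, another Notch target that feeds back on the pathway, had a difference of 1.34 (SE 0.29, adjusted P = 0.0353), and these were the 2 of 20 Notch pathway genes past the threshold. The difference for Nr2f2, which specifies venous identity, was 1.26 (SE 0.29, adjusted P = 0.0474), and its call was lost without any of 5 of the 12 arrays (differences of 1.1 to 1.35).

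Vwf, the von Willebrand factor of endothelium and platelets, was lowered past the threshold in HE alone. Its values were 10.26, 9.90 and 10.29 in uninduced HE, 6.95, 7.85 and 7.06 in induced HE, 9.98, 9.99 and 10.38 in uninduced HE2 and 8.93, 8.88 and 9.78 in induced HE2. The uninduced arrays of the 2 stages overlapped, and the induced HE arrays lay below all others. Its Dox change was -2.86 (adjusted P = 1.62e-06) in HE and -0.92 (adjusted P = 0.0303) in HE2, with a difference of 1.94 (SE 0.40, adjusted P = 0.0246). With the block among the uninduced arrays the calls of Sox17, Hes1, Nr2f2 and Vwf were lost. The Hes1 call was also lost with only the HE and HE2 arrays fitted and no block.

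Stab1, Mmrn2 and Flt1 were upregulated past the threshold in HE2 and not in HE. In HE, however, all induced arrays of Stab1 and Mmrn2 also lay above the uninduced ones. Their changes there were 0.88 (adjusted P = 0.0712) and 0.95 (adjusted P = 0.034) in limma, whereas the HE arrays of Flt1 overlapped. Stab1 encodes the scavenger receptor stabilin-1 of sinusoidal endothelium, and its values were 12.26, 11.80 and 12.55 in uninduced HE, 12.68, 12.72 and 13.85 in induced HE, 10.45, 10.25 and 10.02 in uninduced HE2 and 13.16, 12.58 and 13.32 in induced HE2. Uninduced HE2 started lowest and induced HE2 reached the range of induced HE, with a difference of 1.90 (SE 0.45, adjusted P = 0.0531). For Mmrn2, an endothelial matrix protein, it was 1.65 (SE 0.41, adjusted P = 0.0681), and for Flt1, the VEGF receptor 1, 1.5 (SE 0.36, adjusted P = 0.0571). These 3 calls were lost on leaving out 1 array, in Stab1 any of 8 of the 12 arrays (differences of 1.70 to 2.28), in Mmrn2 10 of the 12 arrays (differences of 1.41 to 1.86) and in Flt1 10 of the 12 arrays (differences of 1.22 to 1.81).

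Genes for secreted factors and adhesion molecules were found among the higher genes as well. Of 28 growth factor and receptor kinase genes tested, Igfbp3, Pdgfb and Vegfc passed, all higher, with a median of 0.10 for the list. Vegfc, a ligand of lymphatic growth, had values of 11.21, 12.20 and 11.98 in uninduced HE, 10.46, 11.20 and 10.49 in induced HE, 11.08, 11.41 and 11.20 in uninduced HE2 and 11.59, 11.85 and 12.07 in induced HE2 and a difference of 1.69 (SE 0.35, adjusted P = 0.0246). It fell in HE (-1.08, adjusted P = 0.00493), and all induced HE2 arrays lay above the uninduced ones with a change of 0.61 (adjusted P = 0.105). Pdgfb, by which endothelium recruits pericytes, fell in HE with a change of -1.16 (adjusted P = 0.00145) and had a difference of 1.43 (SE 0.32, adjusted P = 0.038), a call lost without any of 3 of the 12 arrays (differences of 1.2 to 1.64). Ltbp1, which holds TGF-beta in the matrix, was lowered in HE (-1.46, adjusted P = 7.16e-05) and had a value of -0.02 in HE2, with a difference of 1.44 (SE 0.29, adjusted P = 0.0243). Col18a1, a basement membrane collagen, had a difference of 1.01 (SE 0.24, adjusted P = 0.0559) and lost the call without any of 10 of the 12 arrays (differences of 0.86 to 1.22).

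Of 21 genes for integrins and leukocyte adhesion, Madcam1 and Itga2 were higher and Itgb7 was lower. Madcam1 is the ligand of the integrin that contains the β7 chain encoded by Itgb7. Madcam1 fell in HE (-1.91, adjusted P = 6.83e-04) and had a value of 0.22 (adjusted P = 0.749) in HE2, with a difference of 2.13 (SE 0.48, adjusted P = 0.0423). Itgb7 rose at both stages, by 3.85 in HE and 2.04 in HE2, a difference of -1.81 (SE 0.45, adjusted P = 0.0624). A call was lost on leaving out 1 array for Madcam1 in 4 of the 12 arrays (differences of 1.73 to 2.34), for Itgb7 in 9 of the 12 arrays (differences of -2.18 to -1.5) and for the collagen receptor chain gene Itga2, with a difference of 1.67 (SE 0.39, adjusted P = 0.0522), in 6 of the 12 arrays (differences of 1.39 to 1.90). The guidance molecule gene Sema7a (1.81) and the immediate early gene Klf6 (1.1) were the members called in their lists, and both also lost the call without single arrays, in Sema7a 4 of the 12 arrays (differences of 1.43 to 2.07) and in Klf6 8 of the 12 arrays (differences of 0.93 to 1.29).

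The promoters of 3 higher genes are shown here as examples that were chosen after their values were seen, Cck for its size, Flt1 as an endothelial receptor and Gas6 as a gene that fell. Each is the 250 bases before the annotated start in RefSeq on GRCm38.p6, in the direction of the gene, which lies on the minus strand in all 3. The windows are chr9:121495695-121495944 for Cck, chr5:147726012-147726261 for Flt1 and chr8:13494536-13494785 for Gas6. Capitals mark matches on either strand. The letters searched for RUNX sites were TGTGGT and as a variant of the same core TGCGGT. For the ETS family they were AGGAAG, and for factors of the GATA family the search used AGATAA, and none of these can contain another.
Cck: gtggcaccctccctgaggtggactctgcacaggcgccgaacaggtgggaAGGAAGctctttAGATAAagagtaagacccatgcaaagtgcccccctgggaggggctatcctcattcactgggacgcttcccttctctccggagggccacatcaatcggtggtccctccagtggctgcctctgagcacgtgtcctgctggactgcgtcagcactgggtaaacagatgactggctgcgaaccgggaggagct
Flt1: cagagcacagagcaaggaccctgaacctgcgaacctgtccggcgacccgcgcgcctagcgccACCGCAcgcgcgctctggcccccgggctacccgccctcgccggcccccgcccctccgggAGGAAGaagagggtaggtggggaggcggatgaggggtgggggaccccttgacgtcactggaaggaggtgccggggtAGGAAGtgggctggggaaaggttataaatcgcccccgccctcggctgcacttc
Gas6: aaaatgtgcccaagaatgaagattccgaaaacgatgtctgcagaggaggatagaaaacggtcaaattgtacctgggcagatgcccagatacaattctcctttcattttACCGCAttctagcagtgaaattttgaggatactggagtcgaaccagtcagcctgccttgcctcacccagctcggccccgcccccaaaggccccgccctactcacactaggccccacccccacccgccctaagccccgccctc
Cck held 1 ETS and 1 GATA match, Flt1 1 RUNX and 2 ETS matches and Gas6 1 RUNX match.

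Ccl6 had the largest difference in the lower direction. It encodes a chemokine of myeloid cells. Its values were 7.93, 7.0 and 7.33 in uninduced HE, 8.88, 8.76 and 8.49 in induced HE, 11.21, 10.32 and 10.95 in uninduced HE2 and 9.21, 8.49 and 7.51 in induced HE2. Without Dox every HE2 array lay above every HE array, and with Dox the stages overlapped. The change was 1.29 (adjusted P = 0.0683) in HE and -2.42 (adjusted P = 0.00122) in HE2, a difference of -3.72 (SE 0.65, adjusted P = 0.0113). In bulk RNA of sorted cells, fewer cells of a type and less RNA per cell cannot be told apart.

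Ccl9 and Ccl3, further chemokine genes, followed. Ccl9 values were 7.06, 5.58 and 5.93 in uninduced HE, 7.26, 6.79 and 5.80 in induced HE, 11.24, 11.25 and 11.32 in uninduced HE2 and 9.33, 8.38 and 7.05 in induced HE2, with a difference of -3.44 (SE 0.71, adjusted P = 0.0246). In Ccl3 they were 5.81, 5.51 and 5.01 in uninduced HE, 6.12, 5.59 and 5.26 in induced HE, 10.25, 9.89 and 10.13 in uninduced HE2 and 8.40, 8.08 and 6.86 in induced HE2, with a difference of -2.52 (SE 0.45, adjusted P = 0.0118). In both, induced and uninduced HE arrays overlapped and lay below all uninduced HE2 arrays, and the induced HE2 arrays lay below the uninduced ones. Probes of close family members may share signal, which was not tested, and both calls were lost with the block among uninduced arrays. Of 22 chemokine and chemokine receptor genes tested, these 3 and Cxcr2 had a lower response, Cxcl1 and Cx3cl1 a higher one, and the median was -0.47. Cxcl1, which attracts neutrophils through Cxcr2, had values of 8.86, 9.06 and 8.91 in uninduced HE, 8.11, 8.91 and 8.10 in induced HE, 7.33, 7.98 and 7.47 in uninduced HE2 and 8.55, 9.32 and 9.23 in induced HE2 and a difference of 2.01 (SE 0.39, adjusted P = 0.0181). Its HE arrays overlapped and its induced HE2 arrays lay above the uninduced ones. For Cxcr2 the values were 5.23, 5.43 and 5.21 in uninduced HE, 5.48, 5.31 and 5.71 in induced HE, 7.33, 6.87 and 8.07 in uninduced HE2 and 5.60, 6.29 and 5.71 in induced HE2 with a difference of -1.76 (SE 0.44, adjusted P = 0.0693), with overlapping HE arrays and induced HE2 arrays below the uninduced ones, and its call was lost on leaving out any of 10 of the 12 arrays (differences of -2.04 to -1.44). Cx3cl1 fell at both stages and less in HE2, with a difference of 1.23 (SE 0.29, adjusted P = 0.0507), lost without any of 7 of the 12 arrays (differences of 1.03 to 1.37).

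Blood transcription factor genes with a lower response were Spi1, Ikzf1 and Cebpe, 3 of 30 tested, with none higher and a list median of -0.10. Spi1 encodes PU.1, the main regulator of myeloid genes. Its values were 5.71, 5.01 and 5.68 in uninduced HE, 5.32, 5.25 and 4.94 in induced HE, 8.60, 8.81 and 8.88 in uninduced HE2 and 5.79, 7.16 and 5.14 in induced HE2. It was well above background on 2 of 3 uninduced and 1 of 3 induced HE arrays, and all induced HE2 arrays lay below the uninduced ones. The Dox change was -0.30 in HE and -2.73 (adjusted P = 5.42e-05) in HE2, with a difference of -2.44 (SE 0.52, adjusted P = 0.0297). The Spi1 call was lost with only the HE and HE2 arrays fitted, without and with the block among uninduced arrays.

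Ikzf1, the lymphoid and myeloid regulator Ikaros, had values of 6.5, 6.34 and 6.01 in uninduced HE, 7.16, 7.07 and 6.63 in induced HE, 9.59, 10.03 and 10.03 in uninduced HE2 and 8.34, 8.23 and 8.32 in induced HE2. Induced HE arrays lay above the uninduced ones and induced HE2 arrays below them. The difference was -2.26 (SE 0.37, adjusted P = 0.00862) and remained past the threshold under every alternative that was run. Cebpe, a regulator of granule genes, had a difference of -1.24 (SE 0.29, adjusted P = 0.0531), and its call was lost without any of 7 of the 12 arrays (differences of -1.44 to -1.09). Satb1, a chromatin organiser of early lymphoid cells, was of another kind. It rose in HE (1.56, adjusted P = 2.35e-05) with a value of 0.21 (adjusted P = 0.533) in HE2, a difference of -1.35 (SE 0.28, adjusted P = 0.0246).

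Of 39 genes for myeloid receptors and signalling, Tyrobp, Coro1a, Ncf1 and Btk had a lower response and none a higher one, and the median was -0.39 with 10 of 39 above 0. Tyrobp, the adaptor DAP12 of activating receptors, had values of 7.58, 6.71 and 6.14 in uninduced HE, 8.80, 9.30 and 8.45 in induced HE, 11.32, 11.44 and 12.04 in uninduced HE2 and 11.06, 10.02 and 10.62 in induced HE2. It rose in HE (2.04, adjusted P = 5.29e-04), and the induced HE2 arrays lay below the uninduced ones (-1.03, adjusted P = 0.0533), with a difference of -3.07 (SE 0.50, adjusted P = 0.00862). Coro1a, an actin-binding protein of leukocytes, had values of 8.45, 8.69 and 7.62 in uninduced HE, 8.83, 9.61 and 9.09 in induced HE, 11.47, 12.11 and 12.07 in uninduced HE2 and 10.79, 10.37 and 10.45 in induced HE2 and a difference of -2.28 (SE 0.41, adjusted P = 0.0118). Its induced arrays lay above the uninduced ones in HE and below them in HE2. Ncf1, a subunit of the phagocyte oxidase, fell in HE2 with a change of -1.97 (adjusted P = 2.76e-05) with a value of 0.29 in HE, a difference of -2.26 (SE 0.35, adjusted P = 0.00641). For Btk, a kinase of B cells and myeloid cells, the difference was -1.70 (SE 0.37, adjusted P = 0.0332). Its call was lost with the block among uninduced arrays and also with the mean of its probes.

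Other genes shared the pattern of a higher level in uninduced HE2 than in uninduced HE. Slc2a6, of the glucose transporter family, was the gene that passed the threshold at both stages in opposite directions. Its values were 6.68, 6.92 and 6.54 in uninduced HE, 7.54, 8.11 and 7.87 in induced HE, 9.15, 9.19 and 9.36 in uninduced HE2 and 8.14, 7.72 and 7.32 in induced HE2. It rose in HE by 1.13 (adjusted P = 0.00896) and fell in HE2 (-1.51, adjusted P = 9.86e-04), a difference of -2.64 (SE 0.40, adjusted P = 0.00531). Arhgap9 had values of 7.25, 7.27 and 6.67 in uninduced HE, 8.89, 9.17 and 8.54 in induced HE, 9.57, 9.91 and 10.18 in uninduced HE2 and 8.97, 9.14 and 9.16 in induced HE2 and a difference of -2.60 (SE 0.33, adjusted P = 0.00215). Its induced arrays lay above the uninduced ones in HE and below them in HE2, and the induced arrays of the stages overlapped. The myosin gene Myo1g of blood cells rose in HE (2.70, adjusted P = 3.65e-06) with a value of 0.14 in HE2, a difference of -2.56 (SE 0.41, adjusted P = 0.00846).

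Tuba8, an alpha-tubulin gene, had values of 5.94, 5.60 and 5.53 in uninduced HE, 6.00, 5.75 and 5.95 in induced HE, 9.34, 9.07 and 9.47 in uninduced HE2 and 7.28, 6.86 and 6.29 in induced HE2. It stayed between 5.53 and 6.00 on the HE arrays and fell in HE2 with a change of -2.48 (adjusted P = 1.23e-05), with a difference of -2.69 (SE 0.40, adjusted P = 0.00531). Emilin2, a matrix glycoprotein, fell in HE2 with a change of -2.57 (adjusted P = 0.00116) and had a difference of -3.20 (SE 0.69, adjusted P = 0.0324). P2ry14, the receptor for UDP-glucose, was well above background on 0 of 3 uninduced and 1 of 3 induced HE arrays, so that its response there was not measured. In HE2 it had values of 7.99, 8.46 and 8.20 without and 6.35, 6.41 and 5.45 with Dox, a change of -2.15 (adjusted P = 1.55e-05). Rufy4 was also not well above background in uninduced HE. It was at least 1.75-fold higher with Dox in HE (adjusted P = 0.036), a bound set by the dimmest probes still well above background, and its Dox change in HE2 was -1.06 (adjusted P = 0.0087). The call of Rufy4 was lost with the block among uninduced arrays.

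Markers of other cell types were read on the same arrays. Of 22 such markers, for macrophages, red cells, muscle, epithelium, fibroblasts and ES cells, 17 were tested and 0 passed the threshold for the difference in response in limma, with 6 at an unadjusted P below 0.05, namely Col3a1, Csf1r, Hbb-bh1, Hbb-y, Krt8 and Myl7. These are 35.3% of the markers, beside 8.62% of all genes tested at that P value. Among them the macrophage marker Csf1r fell in HE2 (-1.77, adjusted P = 9.81e-04 in limma). Adgre1, another macrophage marker, had a change of -0.27 there (adjusted P = 0.690 in limma) and was far dimmer. The summed intensity of Csf1r and Adgre1 (log2) therefore reads mainly Csf1r. It was 10.79 to 11.39 on uninduced and 9.10 to 9.71 on induced HE2 arrays, compared with 9.85 to 11.32 and 9.60 to 10.08 in HE. Cd68, the third macrophage marker, was not tested. The part of these markers in the fall of the myeloid genes in HE2 was not tested. Of the 4 red cell markers 3 rose at both stages. The smooth muscle marker Acta2 and the epithelial marker Krt18 were well above background on all uninduced arrays and fell at both stages. Their lists were not uniform. Of 4 muscle markers, 1 passed the threshold upwards and 1 downwards in HE, and 2 downwards in HE2. Of 2 epithelial markers tested, 1 passed downwards in HE and 2 in HE2. Of 4 fibroblast markers, 1 passed upwards and 2 downwards in HE, and 2 downwards in HE2.

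**Figure D3:**
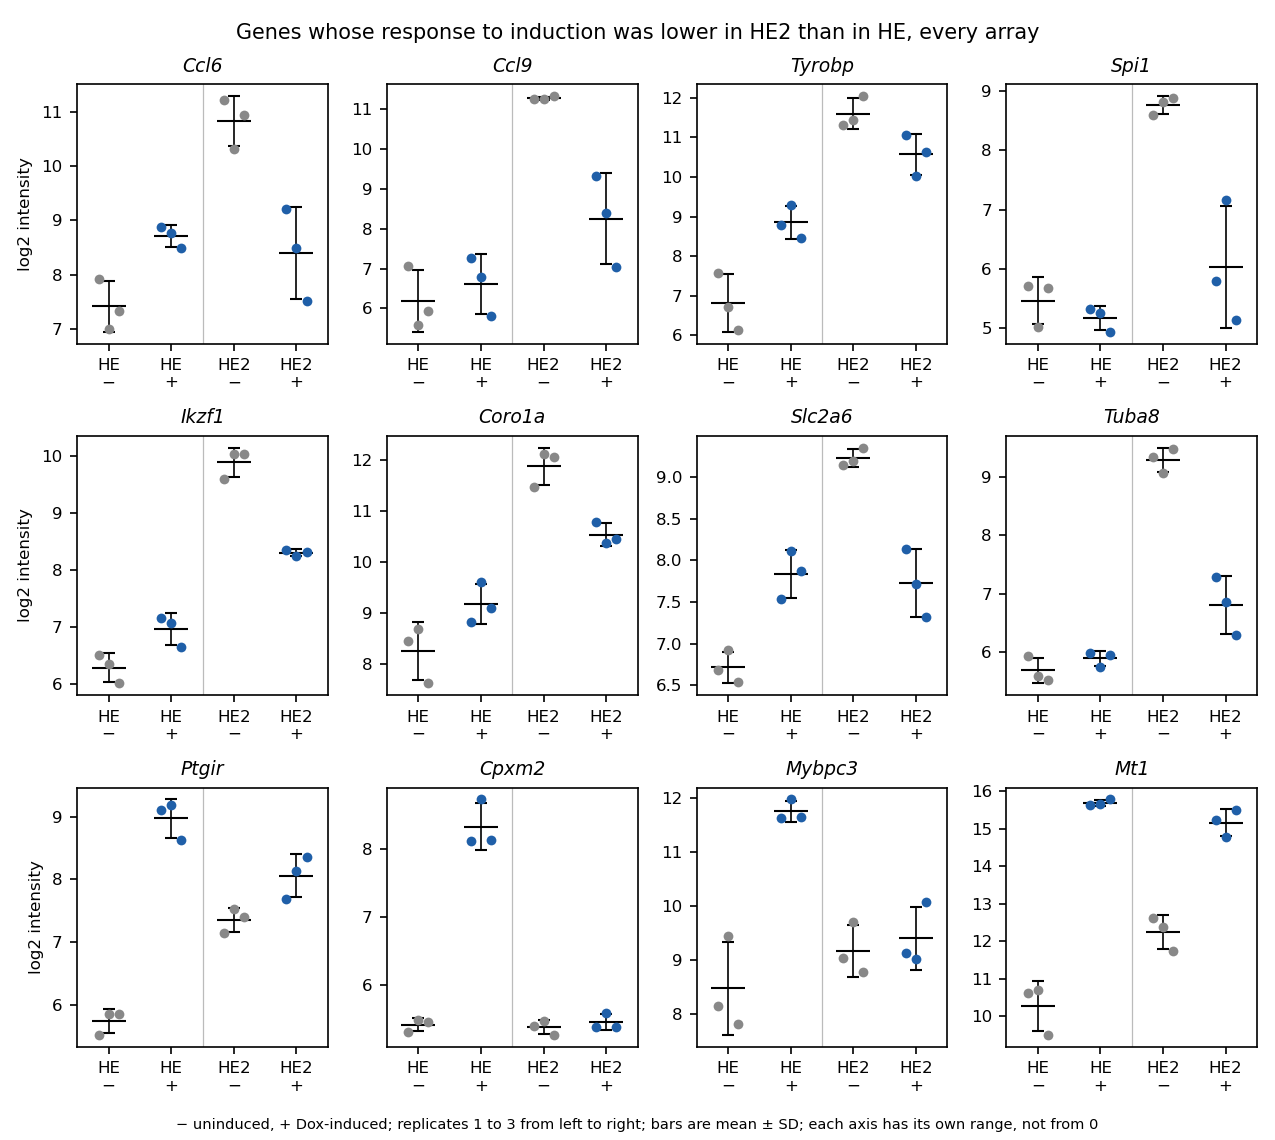
Log2 intensity of 12 genes with a lower response in HE2, on every array, with uninduced arrays in grey, induced arrays in blue and black bars for the mean ± SD of 3 arrays. The first 8 genes are highest in uninduced HE2 and lie lower there with Dox, whereas Ptgir, Cpxm2, Mybpc3 and Mt1 rise steeply in HE and less or not in HE2.

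The second block of lower genes was raised by RUNX1-ETO in HE and less or not in HE2. Cpxm2, of the carboxypeptidase family, had values of 5.31, 5.49 and 5.45 in uninduced HE, 8.12, 8.74 and 8.14 in induced HE, 5.39, 5.47 and 5.26 in uninduced HE2 and 5.38, 5.59 and 5.38 in induced HE2. The 3 induced HE arrays were above the other 9, which did not exceed 5.59. Its Dox change was 2.92 (adjusted P = 1.68e-07) in HE and 0.08 (adjusted P = 0.88) in HE2, with a difference of -2.84 (SE 0.33, adjusted P = 0.0013). The induced HE arrays also stood above all others for Nkain4, with values of 7.13, 7.95 and 7.40 in uninduced HE, 10.41, 10.65 and 10.83 in induced HE, 7.6, 7.55 and 6.97 in uninduced HE2 and 7.29, 7.53 and 8.11 in induced HE2, a Dox change of 3.14 in HE and a difference of -2.87 (SE 0.48, adjusted P = 0.00907). Mybpc3, the cardiac myosin-binding protein C, had values of 8.15, 9.44 and 7.82 in uninduced HE, 11.63, 11.97 and 11.65 in induced HE, 9.03, 9.70 and 8.77 in uninduced HE2 and 9.12, 9.01 and 10.06 in induced HE2 and a difference of -3.05 (SE 0.52, adjusted P = 0.00989). It was read beside the 23 cardiac and smooth muscle genes of a separate list, of which 0 passed the threshold and 4 (17.4%, beside 8.62% of all genes tested) had an unadjusted P below 0.05 in limma, with a median of -0.20.

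Cst9, a cystatin gene, was not well above background on any uninduced array of either stage nor on induced HE2 arrays. With Dox in HE its values were 6.73, 7.10 and 6.68, at least 4.37-fold higher than without (adjusted P = 4.02e-07). Its response in HE2 was not measured, so that the difference has no measured size. Nckap5 rose in HE by 2.56 and was at least 1.60-fold higher with Dox in HE2 (adjusted P = 0.0446), where its uninduced arrays were not well above background. Among the higher genes Smim5 was not well above background in uninduced HE. It was at least 1.85-fold higher with Dox in HE (adjusted P = 0.00325) and rose by 2.34 (adjusted P = 3.91e-07) in HE2, where 1 of 3 uninduced arrays was well above background.

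Genes of prostaglandin and leukotriene metabolism were represented by Ptgir and Pla2g4a, 2 of 16 tested, both lower, with a list median of -0.40. Ptgir encodes the prostacyclin receptor, and its values were 5.52, 5.85 and 5.85 in uninduced HE, 9.10, 9.20 and 8.62 in induced HE, 7.15, 7.52 and 7.39 in uninduced HE2 and 7.69, 8.14 and 8.36 in induced HE2. It rose in HE (3.24, adjusted P = 1.89e-07), and the induced HE2 arrays also lay above the uninduced ones (0.71, adjusted P = 0.0706), with a difference of -2.53 (SE 0.37, adjusted P = 0.00531). Pla2g4a, the phospholipase that releases arachidonic acid, fell in HE2 instead (-1.43, adjusted P = 0.00156) with a value of 0.39 in HE, a difference of -1.83 (SE 0.40, adjusted P = 0.0342). The Pla2g4a call was lost with only the HE and HE2 arrays fitted, without and with the block among uninduced arrays.

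Mt1, a metallothionein that binds zinc and copper, was strongly upregulated at both stages. Its values were 10.63, 10.69 and 9.51 in uninduced HE, 15.62, 15.66 and 15.78 in induced HE, 12.62, 12.37 and 11.73 in uninduced HE2 and 15.23, 14.77 and 15.49 in induced HE2. Uninduced HE2 was higher than uninduced HE on every array, and induced HE2 was lower than induced HE on every array. The rise was 5.41 (adjusted P = 5.93e-09) in HE and 2.92 (adjusted P = 1.11e-05) in HE2, a difference of -2.49 (SE 0.47, adjusted P = 0.0173). Its neighbour Mt2 had values of 9.51, 9.72 and 8.95 in uninduced HE, 14.91, 15.10 and 15.22 in induced HE, 9.47, 9.63 and 9.26 in uninduced HE2 and 14.07, 13.53 and 14.51 in induced HE2. It rose by 5.69 and 4.58, with a difference of -1.1 (SE 0.40, adjusted P = 0.315) that was not past the threshold, and the uninduced arrays of the stages overlapped. Of 13 metallothionein and zinc transporter genes, Mt1 was the 1 past the threshold.

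Further list members with a lower response were few. Of 26 interferon-stimulated genes, Usp18 and Oas1a passed, with a median of -0.19 for the list. Usp18, which removes ISG15, fell in HE2 (-1.97, adjusted P = 1.68e-04) and Oas1a, a sensor of double-stranded RNA, rose in HE (2.46, adjusted P = 3.80e-06). Their differences of -1.66 (SE 0.42, adjusted P = 0.0697) and -1.54 (SE 0.37, adjusted P = 0.0571) lost the call without any of 9 of the 12 arrays (differences of -1.90 to -1.34) and 9 of the 12 arrays (differences of -1.71 to -1.36). Nr1h3, the oxysterol receptor LXRα, rose in HE (1.12, adjusted P = 0.00174) with a value of -0.53 in HE2, with a difference of -1.65 (SE 0.32, adjusted P = 0.0181), and was the 1 gene past the threshold of 20 for sterol and lipid transport. Il6ra, the receptor chain for IL-6, a factor in the blast culture medium, had a difference of -1.61 (SE 0.38, adjusted P = 0.0531), and the hypoxia-responsive gene Ndrg1 -1.36 (SE 0.34, adjusted P = 0.0693). Both lost the call without single arrays, in Il6ra any of 8 of the 12 arrays (differences of -1.87 to -1.40) and in Ndrg1 any of 10 of the 12 arrays (differences of -1.52 to -1.07).

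**Figure D4:**
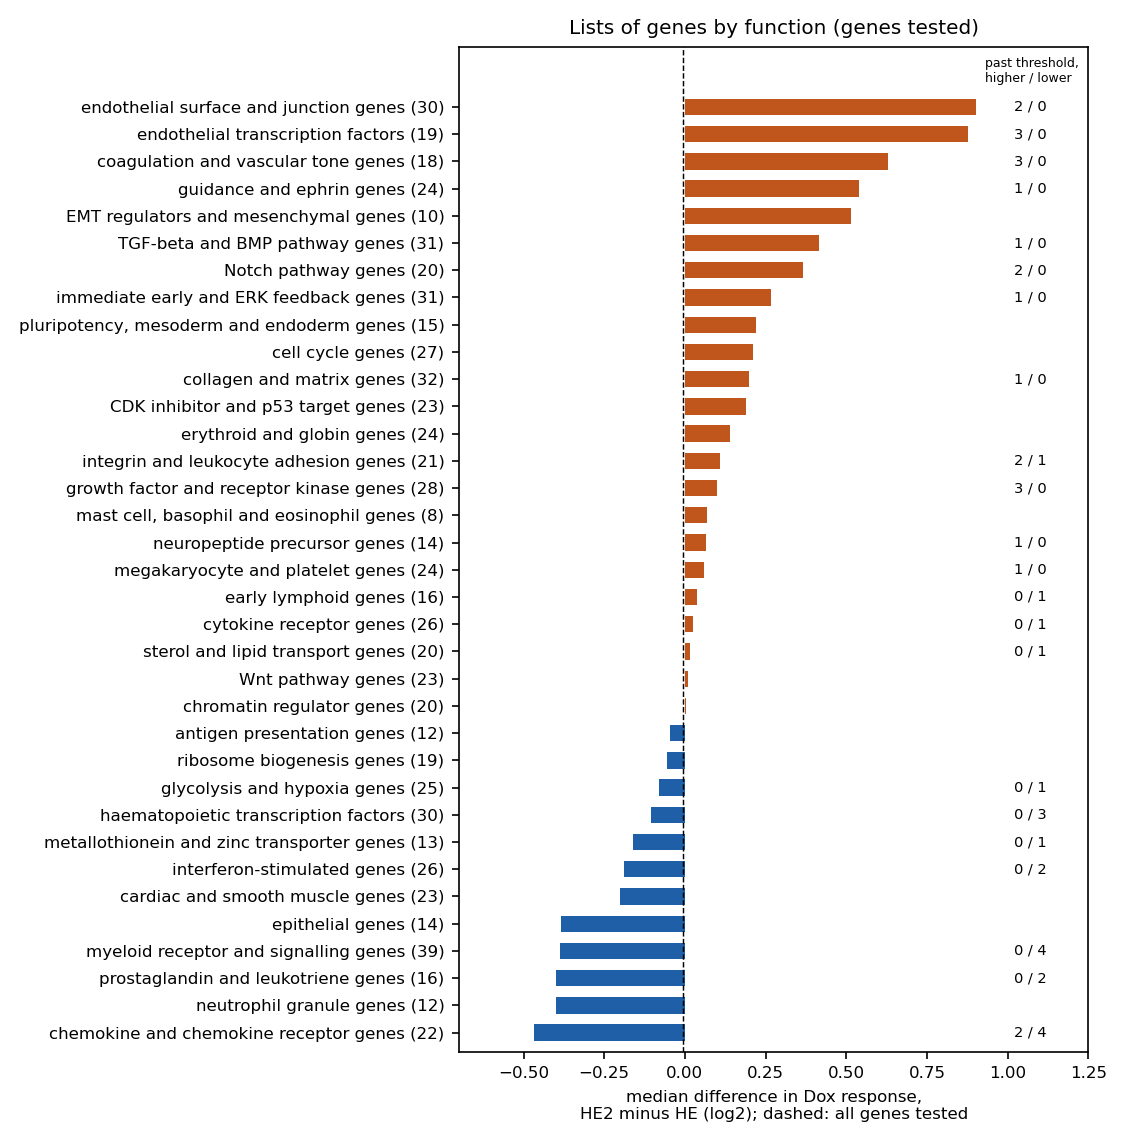
Median difference in Dox response (log2, HE2 minus HE) of 35 lists of genes by function, with the number of genes tested in brackets and the number past the threshold, higher and lower, at the right. Lists of endothelial genes lie at the top, with medians of 0.90 and 0.88, and chemokine genes at the bottom with -0.47, and the dashed line marks the median of all genes.

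Over all 35 lists, 719 different genes were tested, of which 21 had a higher and 21 a lower response, that is, 42 of the 203 genes. Of all genes tested 1.34% were called. The lists were written with earlier results of these data known, so that a larger share in them is no independent result. For 13 lists with 227 genes tested 0 genes passed the threshold in limma, and 23 had an unadjusted P below 0.05, which is 10.1% beside 8.62% of all genes tested. Among them were 24 erythroid and globin genes, of which 8 were upregulated in HE and 7 in HE2, with a median difference of 0.14. The 12 neutrophil granule genes had a median of -0.40, with 2 of 12 above 0, and the 14 epithelial genes -0.38. The 27 cell cycle genes had a median of 0.21 and the 19 ribosome biogenesis genes -0.06. The megakaryocyte and platelet list of 24 genes had Vwf as its 1 called gene and a median of 0.06.

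The promoters of 3 lower genes are shown for the chemokine genes Ccl6 and Ccl3 and for Myo1g with its run of ETS letters, again chosen after their values were seen. They are the 250 bases before the start in RefSeq on GRCm38.p6, all on the minus strand, at chr11:83593088-83593337, chr11:83649379-83649628 and chr11:6520959-6521208, with capitals for the same letters as above.
Ccl6: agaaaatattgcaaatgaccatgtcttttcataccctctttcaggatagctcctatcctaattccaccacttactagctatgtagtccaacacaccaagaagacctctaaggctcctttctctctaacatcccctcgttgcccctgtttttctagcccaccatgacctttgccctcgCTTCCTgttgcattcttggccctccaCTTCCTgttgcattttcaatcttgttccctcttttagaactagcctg
Ccl3: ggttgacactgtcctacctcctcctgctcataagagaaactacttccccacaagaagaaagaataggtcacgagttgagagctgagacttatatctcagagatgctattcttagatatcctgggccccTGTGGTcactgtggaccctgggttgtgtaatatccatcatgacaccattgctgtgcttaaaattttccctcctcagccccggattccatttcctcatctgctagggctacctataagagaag
Myo1g: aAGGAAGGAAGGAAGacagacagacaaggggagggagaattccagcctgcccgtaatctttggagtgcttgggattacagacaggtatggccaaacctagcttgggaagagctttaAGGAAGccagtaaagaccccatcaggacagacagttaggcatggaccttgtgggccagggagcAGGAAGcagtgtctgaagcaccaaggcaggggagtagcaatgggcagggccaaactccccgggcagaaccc
Ccl6 held 2 ETS matches, Ccl3 1 RUNX match and Myo1g 5 ETS matches, of which 3 overlap in a run at the start of the window.

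Promoter windows of 250 bases before to 50 bases after the start were present for 69 of the 95 higher and 83 of the 108 lower genes, with 91 and 113 windows. The ETS letters were found in 44% of the windows of higher and 50.4% of those of lower genes, beside 33.6% for all genes tested and 35.4% for all promoters of the table. The RUNX letters were found in 26.4% and 24.8%, beside 21% and 22.4%. For the GATA letters it was 12.1% and 9.73%, beside 7.69% and 11.2%. These are shares of letters and were not tested.

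The arrays of later stages were read for the same genes. Their values are no part of the difference itself. They entered the normalization, the choice of probe, the filter and the estimate of spread behind its P values. They thus bear on which genes were called. In CD41+ KIT+ Tie2- progenitors, with 2 arrays without and 2 with Dox, the 95 higher genes had a median Dox change of 0.88 with 78 above 0, and the 108 lower genes -0.64 with 29 above 0. In myeloid progenitors, with 3 and 3 arrays, the medians were 0.72 and -0.26. The median of all genes was -0.04 in progenitors and -0.02 in myeloid progenitors, with 46.1% and 47.9% above 0. Induced progenitor replicate 2 was on slide 3 with another scan date, and 48.8% of its probes were well above background. The other fitted progenitor arrays were on slides 1 and 2. Dox is thus partly mixed with slide and scan date in the progenitor values, also in those by class.

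The called genes were also read by class, with no test between classes. Of the 41 genes upregulated in HE2 alone, 40 were above 0 in progenitors, with a median of 1.44. Of the 36 downregulated in HE2 alone 0 were, with a median of -1.36. In myeloid progenitors 38 of the 41 and 3 of the 36 were above 0. Of all genes tested, 46.1% were above 0 in progenitors and 47.9% in myeloid progenitors. Genes that Dox changed in HE2 but that were not called here were not read in this way. The 26 genes downregulated in HE alone had a median of 0.12 in progenitors and the 45 upregulated in HE alone -0.15, with 17 above 0 in each set. Cck changed by 4.59 in progenitors and 4.83 in myeloid progenitors and Stab1 by 4.26 and 3.70. The values for Ncf1 were -1.94 and -2.16 and those for Spi1 -2.23 and -1.39. Among the genes raised in HE alone, Cpxm2 had values of 0.55 and -0.25 and Mybpc3 of -0.69 and -1.43. Vwf rose by 1.52 in progenitors and fell in myeloid progenitors (-1.23).

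**Figure D5:**
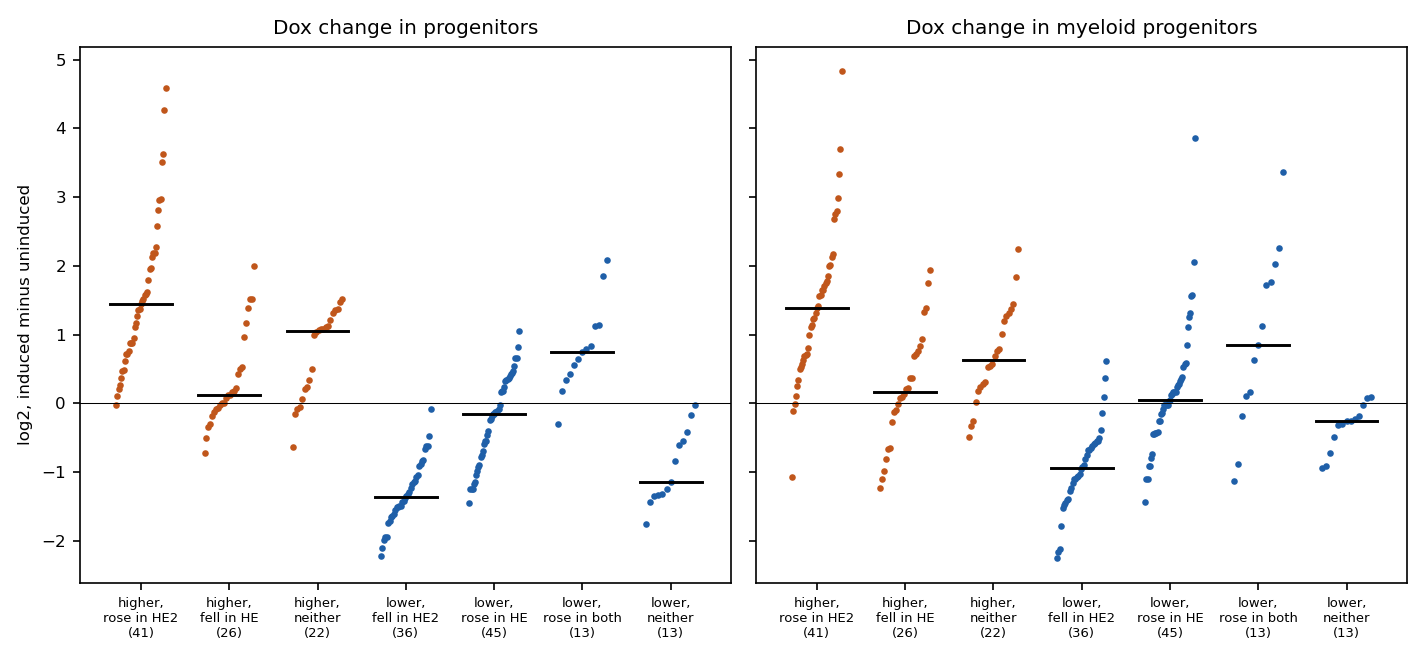
Log2 change with Dox in progenitors and in myeloid progenitors of the genes called in the difference between HE2 and HE, grouped by where they changed, with 1 point a gene and a black line for the median. Genes upregulated in HE2 alone lie above 0 in progenitors apart from 1 and genes downregulated in HE2 alone lie below 0, whereas those changed in HE alone lie on both sides.

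The HE to HE2 change gives another view of the same values and is not independent of the difference. Without Dox the 95 higher genes had a median change of -0.91 from HE to HE2, with 4 of 95 above 0, and with Dox 0.54. The 108 lower genes had a median of 1.45 without and -0.24 with Dox. For all genes these medians were 0.03 and 0.01.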

How the data were processed

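Total RNA of sorted mouse cells was labelled with Cy3 and hybridised to Agilent arrays, and the authors deposited scanner files with median spot and background intensity and a table of normalized log2 values. Per the labels the scans were processed with Feature Extraction 10.7.1.1 and limma. The deposited log2 table matched a normalization with an offset of 50, and its columns for induced replicates 2 and 3 of HE, HE2 and myeloid progenitors matched each other's scanner files, which leaves the groups unchanged, so the scanner files were used. The annotation of the authors' files is old, and genes were named through RefSeq gene names of the GRCm38.p6 assembly, by which 26582 of 55681 probes matched a symbol.

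Intensities of 23 arrays were background-corrected (normexp, offset 16) and quantile normalized in limma 3.58.1 (R 4.3.3). Control spots and outlier spots were left out and spots of a probe averaged. The brightest probe represented a gene, and 15202 of 20145 genes reached a log2 intensity of 6.5 on at least 1 array. The linear model was fitted to 22 arrays of all groups with no block, the technical repeat of an uninduced progenitor array being normalized only. The difference in response was called at P of at most 0.001 and at least 2-fold, with Benjamini-Hochberg adjustment over all genes. The number of arrays limits the precision. The scripts were tested on simulated data.

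The genes named were the 12 largest measured differences in each direction, the 4 most certain genes in each direction with a group not well above background where that many were called, called members of 35 lists of genes by function and of the marker lists, and Runx1t1, Runx1, Kit, Tek, Itga2b, Trh, Mt1 and Mt2. The members and lists were chosen with earlier results of these data known. The replicate numbers of the labels paired the uninduced HE and HE2 arrays by their deviations from the group means (r = 0.393, 0.795 and 0.608) and not the induced ones (0.191, −0.476 and −0.0119). Induced arrays went together under other numbers. Induced HE replicate 2 went with induced HE2 replicate 3 (r = 0.595), and induced HE replicate 1 with induced HE2 replicate 2 (r = 0.589). Offset, background, scaling, filter, probe rule, array weights, slide, scan date, replicate blocks, thresholds and single arrays were varied.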

Additional observations from a re-analysis of the deposited data

Results flagged for a closer look

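Each called gene that was named passed the threshold in a test of the difference in response itself, the interaction term of the limma fit. That threshold was a P value of 0.001 before adjustment together with a 2-fold difference. The adjusted P value in limma reached 0.0715 among all genes called, and was 0.0674 for Flrt3 and 0.0697 for Usp18. Of the 63 named called genes, 21 lost the call without at least 1 array. The values listed here are log2 differences, HE2 minus HE. For the genes with a higher response in HE2 they were 3.37 for Cck, 2.50 for Klhl4, 2.34 for Dupd1, 2.34 for Flrt3, 2.32 for Upb1, 2.26 for Dapk2, 2.24 for Exoc3l4, 2.16 for Gas6, 2.13 for Madcam1, 2.13 for Trib1, 2.06 for Fam181b, 2.04 for Igfbp3, 2.01 for Cxcl1, 1.95 for Sox17, 1.94 for Vwf, 1.90 for Stab1, 1.86 for Hes1, 1.81 for Sema7a, 1.69 for Vegfc, 1.67 for Itga2, 1.65 for Mmrn2, 1.5 for Flt1, 1.44 for Smim5, 1.44 for Ltbp1, 1.43 for Pdgfb, 1.34 for Nrarp, 1.26 for Nr2f2, 1.23 for Cx3cl1, 1.1 for Klf6 and 1.01 for Col18a1. For the genes with a lower response in HE2 they were -3.72 for Ccl6, -3.44 for Ccl9, -3.20 for Emilin2, -3.07 for Tyrobp, -3.05 for Mybpc3, -2.87 for Nkain4, -2.84 for Cpxm2, -2.69 for Tuba8, -2.64 for Slc2a6, -2.60 for Arhgap9, -2.56 for Myo1g, -2.53 for Ptgir, -2.52 for Ccl3, -2.49 for Mt1, -2.44 for Spi1, -2.28 for Coro1a, -2.26 for Ikzf1, -2.26 for Ncf1, -2.10 for P2ry14, -1.89 for Rufy4, -1.88 for Nckap5, -1.83 for Pla2g4a, -1.81 for Itgb7, -1.76 for Cxcr2, -1.70 for Btk, -1.66 for Usp18, -1.65 for Nr1h3, -1.64 for Cst9, -1.61 for Il6ra, -1.54 for Oas1a, -1.36 for Ndrg1, -1.35 for Satb1 and -1.24 for Cebpe. The fitted values of Smim5, P2ry14, Rufy4, Nckap5 and Cst9 rest in part on groups in which no array was well above background and are no measured sizes.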

How the results depend on the processing

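All 203 genes kept the direction of their difference under every alternative that gave them a value. They had been chosen by it on the same arrays, and 61 kept the call with the replicate block within the stage. Their sizes and the number called moved. The counts were 203 genes in all, 95 higher and 108 lower in HE2. Scaling to the 75th percentile gave 63 higher genes. With the mean of the probes of a gene in place of the brightest, the named genes Madcam1, Pdgfb, Oas1a and Btk lost the call. Array quality weights, with only the HE and HE2 arrays fitted, gave 46. Normalizing only the HE and HE2 arrays gave 121 in all and 45 higher, and fitting only these arrays 126 and 46. Within slide 1 it was 49 in all, 18 higher and 31 lower. A threshold of 0.05 on the adjusted P gave 135 in all and 56 higher, and with 2-fold 133 and 54. By the adjusted P alone, an offset of 50 gave 163 genes and the slide block 183. Normalizing only the HE and HE2 arrays gave 19, fitting only these 23 and array quality weights 51. The replicate block gave 19, and that within the Dox state or within the stage 0. The 2-fold threshold alone gave 928, 477 and 451, and P of at most 0.01 with 2-fold 477, 262 and 215.

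With the replicate number as a block 61 genes were higher, and with the block within the Dox state, 121 in all and 37 higher. The replicate block within the stage gave 73, 26 and 47. These blocks also use the replicate numbers of the induced arrays, which did not pair the induced HE and HE2 arrays. The replicate block among uninduced arrays alone, chosen after seeing the data, gave 121 in all and 42 higher. Among the genes named it lost the calls of 13 higher and 11 lower genes. All fits with a replicate block used only the HE and HE2 arrays. Fitting these with no block lost the calls of 13 higher and 7 lower named genes. The cause of these changes was not tested.

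Leaving out each array in turn gave 140 to 206 genes in all, 49 to 104 higher and 76 to 115 lower. The higher count fell by more than 1.5 times without replicate 3 of any of the 4 groups. Of the 63 called genes named, 42 kept the call without any 1 array, 16 of 30 higher and 26 of 33 lower. Ikzf1, Ptgir, Arhgap9, Tuba8, Cpxm2 and Nkain4 were called under every alternative. Tek, not called, turned from 0.77 to −0.52 within slide 1 and to −0.16 without uninduced HE replicate 3. Genes near the lowest signal well above background, 4.34 to 4.85, are measured least well.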

Other observations

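Among the induced HE2 arrays, replicate 3 deviated from its group mean together with uninduced HE2 replicate 2 (r = 0.606 across genes), and induced replicate 2 together with uninduced replicate 3 (r = 0.486), whereas the same numbers gave −0.535 and −0.446. Genes are not independent replicates in these correlations. The deposited columns of induced HE2 replicates 2 and 3 are the ones that matched each other's scanner files.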
